A study of Homo sapiens with 20 samples.

Results

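The matrix metalloproteinases (MMPs) and their tissue inhibitors (TIMPs) described here are 10 genes chosen by name, MMP1, MMP2, MMP7, MMP9, MMP10, MMP13, MMP14, TIMP1, TIMP2 and TIMP3, of 60656 gene rows in the count table. RNA was sequenced in 20 samples whose source is the established cell line SW1990, from a human pancreatic carcinoma, and the series names a mouse model as the setting. Each sample belongs to 1 of 4 groups of 5, named in the labels after a principle of traditional Chinese medicine. The names used are heat-clearing, whose label also gives the removal of dampness, spleen-strengthening, whose label adds regulating the flow of qi, yin-nourishing, a means of eliminating heat per its label, and blood-activating, joined in its label with removing stasis. All groups share the same cell line, and no sample is labelled untreated, so every difference is between 2 treatments. The herbs, dose and duration, the host strain, and whether replicates are separate animals, tumours or cultures are not stated in the labels. Every p-value therefore measures only the spread between these samples, which may be technical.

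MMPs are zinc-dependent endopeptidases that cleave collagens, laminins and other proteins of the extracellular matrix, and most are secreted as inactive proenzymes that other proteases activate. TIMPs bind the active site of MMPs and block it, so the level of both sets how much matrix is degraded. In pancreatic carcinoma these enzymes are known for their part in invasion through the basement membrane and in the dense stroma of the tumour. Several MMP genes carry a binding site for the AP-1 (Fos/Jun) transcription factors close to the start of transcription, together with a TATA box.

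MMP7, MMP10, MMP1 and MMP13 lie in a cluster on the long arm of chromosome 11 (build hg38, GENCODE 29), all on the minus strand. MMP7 is at chr11:102520508-102530753, MMP10 at chr11:102770503-102780628, MMP1 at chr11:102789920-102798160 and MMP13 at chr11:102942995-102955734, which together span 435.2 kb. The other members are spread over the genome, with MMP2 at chr16:55389700-55506691, MMP9 at chr20:46008908-46016561, MMP14 at chr14:22836557-22849027, TIMP1 at chrX:47582313-47586789, TIMP2 at chr17:78852977-78925387 and TIMP3 at chr22:32801701-32863043. TIMP2 is on the minus strand and the other 5 are on the plus strand. TIMP1 and TIMP3 each lie inside a synapsin gene on the opposite strand, SYN1 and SYN3, with which they share no exon base. MMP1 shares 150 exon bases with the pseudogene WTAPP1 and MMP9 shares 430 with SLC12A5-AS1, both on the opposite strand. TIMP2 shares 367 exon bases with AC022966.1 on the opposite strand and 198 with CEP295NL on its own strand, and MMP2 shares 174 with AC007336.3 on its own strand. The strand setting of the authors' counting is not given, so reads from such shared bases could not be told apart.

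Promoter sequence, the 250 bases before the RefSeq start, was at hand for 5 of the 10 members (RefSeq, GRCh38.p14). RefSeq starts can differ from the ends of the GENCODE spans given above. The windows of MMP7, MMP14, TIMP1 and TIMP3 reach into those spans, for TIMP1 from chrX:47582313 on. The sequences of MMP7 and MMP10, 2 genes of the cluster whose levels are set beside each other in the results, are printed with that of TIMP1, which is shown because neither letter string searched for was found in it. They lie at chr11:102530748-102530997 (minus strand), chr11:102780629-102780878 (minus strand) and chrX:47582186-47582435 (plus strand), written 5′ to 3′ with capitals marking the AP-1 letters TGANTCA.
MMP7: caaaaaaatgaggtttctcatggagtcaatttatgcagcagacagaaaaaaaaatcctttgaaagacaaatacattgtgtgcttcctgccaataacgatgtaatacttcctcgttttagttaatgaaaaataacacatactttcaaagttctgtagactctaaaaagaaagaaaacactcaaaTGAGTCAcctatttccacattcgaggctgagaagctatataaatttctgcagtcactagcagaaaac
MMP10: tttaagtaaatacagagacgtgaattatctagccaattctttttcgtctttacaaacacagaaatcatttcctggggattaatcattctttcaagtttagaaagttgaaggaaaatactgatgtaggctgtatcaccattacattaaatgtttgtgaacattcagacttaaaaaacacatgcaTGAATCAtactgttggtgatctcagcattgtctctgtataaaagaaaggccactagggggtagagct
TIMP1: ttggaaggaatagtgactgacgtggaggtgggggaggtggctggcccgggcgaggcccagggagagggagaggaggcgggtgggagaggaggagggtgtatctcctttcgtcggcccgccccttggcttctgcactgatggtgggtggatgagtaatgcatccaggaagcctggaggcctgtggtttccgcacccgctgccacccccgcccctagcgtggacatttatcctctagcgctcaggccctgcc

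The AP-1 letters, which read the same on both strands apart from the middle base, occur once in the MMP7 promoter as TGAGTCA and once in the MMP10 promoter as TGAATCA, both beginning at base -67 from the RefSeq start. The TATA letters TATAAA, searched for on both strands and with no overlap with the AP-1 letters, begin at base -30 in MMP7 and at base -31 in MMP10. Neither string is present in the windows of MMP14, TIMP1 and TIMP3. Over 35116 promoter windows of the same length, 6.57% hold TGANTCA and 10.7% hold TATAAA. A match is a description of these letters and no evidence of binding. Only exact letters were counted, so a missing match is no evidence that a site is absent. The TIMP1 window holds tgagtaa, a near match to the AP-1 letters that the search did not count.

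Total counts were 81.7 to 135 M per library (M, mega), and levels are given as normalised CPM, counts per M counts after TMM scaling. RN7SK, a small nuclear RNA, took 5.25 to 7.38% of the counts in 5 libraries (replicates 1 and 2 of heat-clearing, replicates 1, 8 and 9 of blood-activating) and 1.57 to 3.02% in the other 15. These 5 are called RN7SK-high, and values without them stand beside many, but not all, of the fold changes and lists that follow. Values without them rest on 3 heat-clearing and 2 blood-activating libraries, and on 5 in each other group, so they are less certain. Markers of ductal epithelial tumour cells summed to 1962 to 3196 CPM in the heat-clearing, 2038 to 2417 CPM in the spleen-strengthening, 2046 to 2654 CPM in the yin-nourishing and 1984 to 2870 CPM in the blood-activating group, with KRT19 at 917 ± 95.3 and EPCAM at 97.2 ± 14.1 CPM (SD, n = 20). Human fibroblast markers, 11 genes of which 5 averaged under 1 CPM, summed to 36.2 to 84.0, 55.0 to 84.3, 38.9 to 66.7 and 39.9 to 90.0 CPM in the groups in that order. Of that list COL1A1 at 13.4 to 54.4, FAP at 7.62 to 28.5 and COL6A3 at 7.49 to 15.9 CPM were present in every library, while DCN at 0 to 1.95, PDGFRB at 0 to 0.683 and THY1 at 0 to 0.291 CPM were at or near 0. Human endothelial markers, 7 genes of which 4 averaged under 1 CPM, summed to 14.4 to 29.8 CPM over the 20 libraries. They were led by PECAM1 at 5.23 to 20.5 and ENG at 2.19 to 9.75 CPM, with KDR at 0 to 0.537 CPM. Myeloid markers, 9 genes of which 7 averaged under 1 CPM, summed to 51.5 to 87.0 CPM. Most of that sum was CD68 at 51.7 ± 9.02 CPM, followed by LYZ at 8.67 ± 3.82 CPM, with the leukocyte gene PTPRC at 0 to 0.779 CPM. The part of such cells in the levels of the members was not tested. How mouse reads were treated is not given, so reads from a mouse host, if any, could not be told apart in these values. The stroma of a mouse host is not described by them. In such bulk samples fewer cells of a type and less RNA per cell cannot be told apart.

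All 10 members were detected in every library, but at levels that differed by orders of magnitude. Per kb of exon (CPM divided by the length of the union of exons, mean ± SD, n = 20), MMP1 was the highest at 202 ± 92.1, followed by MMP13 at 139 ± 50.5, MMP10 at 127 ± 47.1 and MMP2 at 107 ± 14.4. TIMP2 at 91.2 ± 19.9, TIMP1 at 85.0 ± 23.6 and MMP14 at 82.9 ± 12.9 CPM per kb came next. Within single libraries the order among these 7 was not fixed, since MMP1 ranked 1 to 4, MMP13 ranked 1 to 6, MMP10 ranked 1 to 8, and their SDs overlapped with those of their neighbours. TIMP3 at 45.6 ± 9.77 CPM per kb ranked 7 or 8 in every library. MMP9 at 1.77 ± 1.42 and MMP7 at 0.903 ± 0.658 CPM per kb held ranks 9 and 10 in every library, below the other 8 members and overlapping each other. Among MMP genes outside the list, MMP28 reached 11.4 and the membrane-type MMP15 reached 4.08 CPM per kb, and MMP26 and MMP27 had no count in any library.

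**Figure D1:**
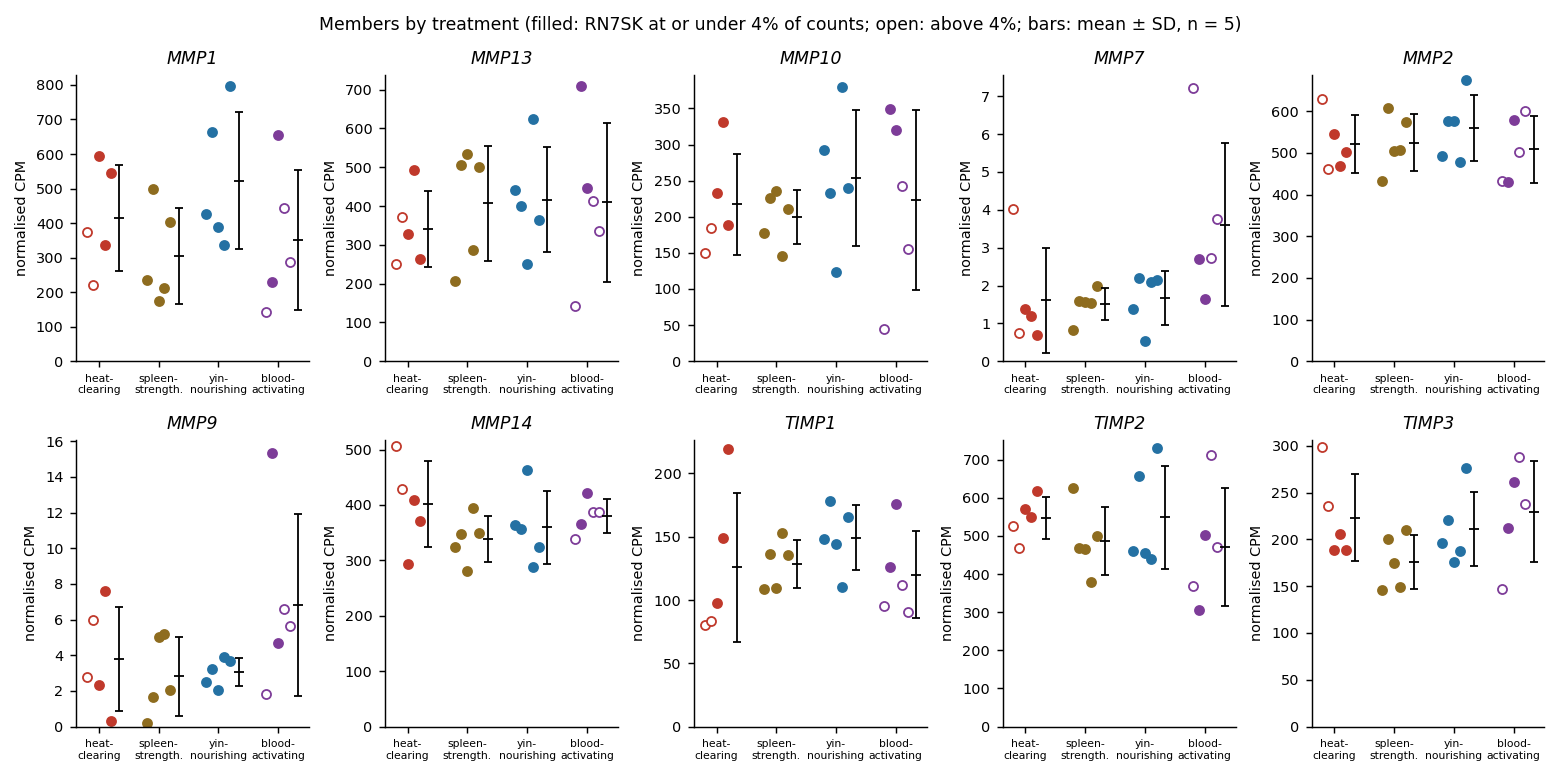
Normalised CPM (linear axes from 0, with a scale of its own in each panel) of each of the 10 genes in the 20 libraries, by treatment (n = 5 each), with open points for the RN7SK-high libraries and black bars for the group mean ± SD. The groups overlap in every panel, and MMP7 and MMP9 lie between 0.187 and 15.3 CPM while the other 8 lie between 44.8 and 797 CPM.

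None of the 10 genes passed the joint test over the 4 treatments (edgeR quasi-likelihood F-test, Benjamini-Hochberg adjustment over 24790 rows, threshold 0.05), where 0% of all tested genes passed. At an unadjusted p under 0.05, 1 member (MMP7) passed, against 15.4% of all tested genes. In the 6 pairs of treatments no member passed either. The share of all tested genes past the adjusted threshold was 0.00807% (2 genes) for heat-clearing over spleen-strengthening and 0% for the other 5 pairs. At an unadjusted p under 0.05 the members past it were 0 for heat-clearing over spleen-strengthening (11.5% of all tested genes), 0 for heat-clearing over yin-nourishing (10.3%) and 0 for spleen-strengthening over yin-nourishing (4.72%). They were 1 for heat-clearing over blood-activating (1.86%), 2 for spleen-strengthening over blood-activating (20.5%) and 1 for yin-nourishing over blood-activating (18.2%). The members past it in the 3 pairs with blood-activating were all on the lower side, to which 1.06%, 12.2% and 10.5% of all tested genes belonged in the same order. No member had groups without overlap in any pair, against 1.26%, 1.16%, 0.488%, 0.77%, 4.44% and 4.12% of all tested genes for heat-clearing over spleen-strengthening, over yin-nourishing and over blood-activating, spleen-strengthening over yin-nourishing and over blood-activating, and yin-nourishing over blood-activating. DESeq2 also called 0 members in each comparison, while over all genes for which it gave an adjusted p it called 9.18% in the 4-treatment test, 14.1% in spleen-strengthening over blood-activating and 7.69% in yin-nourishing over blood-activating. In the other 4 pairs its share was 0.276% (heat-clearing over spleen-strengthening), 0.137% (heat-clearing over yin-nourishing), 0.0404% (heat-clearing over blood-activating) and 0.121% (spleen-strengthening over yin-nourishing). Limma voom with quality weights called 1 member, MMP7, in spleen-strengthening over blood-activating, where it called 19.7% of all tested genes, and in yin-nourishing over blood-activating, where it called 16.9%.

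Most of the variation in these genes lay between libraries of the same treatment. The share of the squared deviations in log2 CPM that lay between treatments was 33.95% for MMP7, 22.9% for TIMP3 and 22.2% for MMP1, and 3.31 to 17.6% for the other 7, beside a median of 19.95% over all tested genes. The within-treatment SD of MMP10 was 0.72 on the log2 scale, above that of 98.7% of the 604 tested genes within 0.5 log2 of its level, whose median was 0.22. It was 0.47 (above 95.7%) without blood-activating replicate 1, and 0.44 (above 98.2%) over the 15 libraries that are not RN7SK-high, both settings chosen after the data were seen. MMP1 had an SD of 0.66 and MMP13 one of 0.61, above 97.8% and 97.0% of the genes of like level, and MMP9 one of 1.41, above 96.4%. Thus 4 of the 7 enzymes were among the most variable genes of their level within a treatment. MMP2 and MMP14 were not, with SDs of 0.20 and 0.22 that exceeded those of 45.8% and 57.2% of genes of like level. MMP7 lay between, with an SD of 0.80, above that of 80.1% of genes of its low level. Among the inhibitors TIMP1 had an SD of 0.40 (92.0%), TIMP2 one of 0.33 (82.4%) and TIMP3 one of 0.29 (75.7%).

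**Figure D2:**
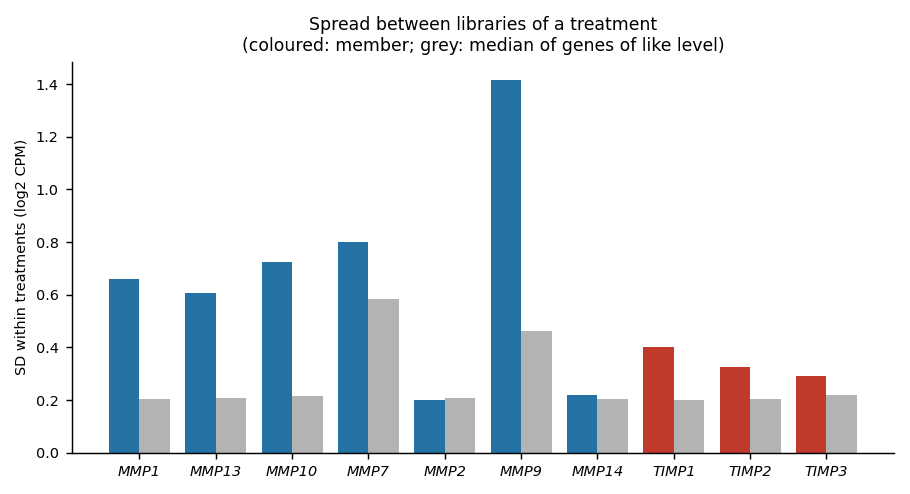
SD of log2 CPM between libraries of the same treatment for each gene (blue for MMPs, red for TIMPs), beside the median SD of tested genes within 0.5 log2 of the same level (grey). MMP1, MMP13, MMP10 and MMP9 stand well above their grey bars at 0.61 to 1.41, and MMP2 and MMP14 stand level with theirs. MMP7 stands at 0.80 beside a grey bar of 0.58.

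The interstitial collagenases, MMP1 and MMP13, cut the triple helix of fibrillar collagens. MMP1 stood at 375, 220.3, 596, 335 and 545 CPM in the heat-clearing libraries, 234, 499, 176, 213 and 404 CPM in the spleen-strengthening libraries, 426, 663, 389, 335 and 797 CPM in the yin-nourishing libraries and 143, 229.9, 656, 443 and 287 CPM in the blood-activating libraries. Each treatment held libraries that differed by more than 2-fold, and the groups overlapped. The means were 414 ± 154, 305 ± 139, 522 ± 198 and 352 ± 202 CPM (SD, n = 5) for heat-clearing, spleen-strengthening, yin-nourishing and blood-activating. The pair furthest apart by its p was spleen-strengthening against yin-nourishing, where MMP1 had a log2 fold change of -0.78 (SE 0.3997, 95% interval -1.62 to 0.07, unadjusted p = 0.0685, adjusted p = 1). Those 2 groups hold no RN7SK-high library. MMP13 stood at 251, 371, 329, 493 and 262 CPM in the heat-clearing libraries, 206, 506, 534, 288 and 499.5 CPM in the spleen-strengthening libraries, 442, 401, 252, 625 and 365 CPM in the yin-nourishing libraries and 143, 711, 445.5, 413 and 335 CPM in the blood-activating libraries. The lowest and the highest of these 20 values both came from blood-activating libraries, replicates 1 and 4. Group means of MMP13 were 341 ± 98.1 for heat-clearing, 407 ± 149 for spleen-strengthening, 417 ± 136 for yin-nourishing and 409 ± 205 CPM for blood-activating (SD, n = 5), and treatment accounted for the smallest share of its variation among the members. Its log2 fold changes in the 6 pairs lay between -0.29 and 0.03, with 95% intervals within -1.02 to 0.75. Without the RN7SK-high libraries these fold changes of MMP13 lay between -0.67 and -0.03, and that of yin-nourishing over blood-activating was -0.47 (SE 0.416) in place of 0.03.

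MMP10 (stromelysin 2) cleaves laminins, fibronectin and proteoglycans and can activate procollagenases, and MMP7 (matrilysin) is a small MMP without a hemopexin domain that epithelial cells make. MMP10 stood at 149, 184, 233, 331 and 188 CPM in the heat-clearing libraries, 178, 226, 236, 145 and 210.3 CPM in the spleen-strengthening libraries, 292, 233, 123, 380.1 and 239.6 CPM in the yin-nourishing libraries and 44.8, 349, 321, 243 and 156 CPM in the blood-activating libraries. Blood-activating replicate 1 was the lowest of the 20 and the groups overlapped. Its means were 217 ± 70.3 for heat-clearing, 199 ± 37.3 for spleen-strengthening, 254 ± 93.7 for yin-nourishing and 223 ± 125 CPM for blood-activating (SD, n = 5), and its fold changes in the 6 pairs lay between -0.35 and 0.19 on the log2 scale. Without the RN7SK-high libraries they lay between -0.74 (spleen-strengthening over blood-activating, SE 0.335, unadjusted p = 0.0468, adjusted p = 0.752) and 0.33, and the MMP10 value of yin-nourishing over blood-activating was -0.40 (SE 0.339) in place of 0.19. In both groups that hold RN7SK-high libraries, MMP10 lay lower in these than in the rest of the group. Those libraries had 149 to 184 CPM, against 188 to 331 CPM in the other heat-clearing libraries, and 44.8 to 243 CPM, against 321 to 349 CPM in the other blood-activating libraries. TIMP1 was the other member that lay lower in RN7SK-high libraries without overlap in both groups, which makes 2 of 10 members, beside 22.4% of all tested genes that lay on the same side in both. The part of RN7SK or of what moves with it in these values was not tested.

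MMP7 was the member with the smallest p in the 4-treatment test (unadjusted p = 0.0315, adjusted p = 0.273). It stood at 4.02, 0.753, 1.38, 1.19 and 0.6997 CPM in the heat-clearing libraries, 0.824, 1.60, 1.56, 1.53 and 1.997 CPM in the spleen-strengthening libraries, 1.38, 2.19, 0.532, 2.09 and 2.16 CPM in the yin-nourishing libraries and 7.22, 2.71, 1.64, 2.72 and 3.77 CPM in the blood-activating libraries. In all, 4 of the 5 blood-activating libraries lay above all spleen-strengthening and yin-nourishing libraries, and replicate 6 lay among them. These levels rest on 44 to 677 counts per library. The log2 fold change was -1.17 for heat-clearing over blood-activating (SE 0.479, 95% interval -2.16 to -0.17, adjusted p = 0.9999), -1.27 for spleen-strengthening over blood-activating (SE 0.481, -2.26 to -0.27, adjusted p = 0.138) and -1.11 for yin-nourishing over blood-activating (SE 0.479, -2.10 to -0.12, adjusted p = 0.216). These 3 pairs share the blood-activating samples and are not independent. In the blood-activating group the 3 RN7SK-high libraries had 2.72 to 7.22 CPM and the other 2 had 1.64 and 2.71 CPM. Without the RN7SK-high libraries the 3 MMP7 values were -0.99 (SE 0.570), -0.53 (SE 0.517, unadjusted p = 0.321, adjusted p = 0.990) and -0.38 (SE 0.5198) in the same order. For spleen-strengthening over blood-activating, without blood-activating replicate 1 alone it was -0.87 (SE 0.480, adjusted p = 0.406). The adjusted p of this pair over all 32 alternatives was 0.0394 to 1, the lowest from limma voom with quality weights.

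The gelatinases, MMP2 and MMP9, degrade denatured collagen and type IV collagen of the basement membrane. MMP2 was the steadiest of the 10 genes, between 429 and 676 CPM over the 20 libraries, a coefficient of variation of 13.4%. Its group means were 521 ± 69.0, 524.5 ± 68.2, 560.1 ± 79.1 and 509 ± 79.9 CPM (SD, n = 5) for heat-clearing, spleen-strengthening, yin-nourishing and blood-activating. Its fold changes in the 6 pairs lay between -0.10 and 0.14 on the log2 scale with 95% intervals from -0.37 to 0.40, so differences beyond that range lay outside the intervals. Without the RN7SK-high libraries the MMP2 fold changes lay between -0.14 and 0.15. MMP9 was the most variable, with a ratio of 81.8 between its highest and lowest library and 20 to 1687 counts. It stood at 2.80, 5.96, 2.30, 7.58 and 0.331 CPM in the heat-clearing libraries, 0.187, 1.63, 5.01, 5.21 and 2.04 CPM in the spleen-strengthening libraries, 2.48, 3.22, 2.07, 3.91 and 3.69 CPM in the yin-nourishing libraries and 1.80, 15.3, 4.69, 6.60 and 5.67 CPM in the blood-activating libraries. Its highest value came from blood-activating replicate 4, and its lowest values came from 1 heat-clearing and 1 spleen-strengthening library. For spleen-strengthening over blood-activating the log2 fold change of MMP9 was -1.28 (SE 0.726, 95% interval -2.80 to 0.25, unadjusted p = 0.0953, adjusted p = 0.345). Without blood-activating replicate 4 it was -0.75 (SE 0.727), and without the RN7SK-high libraries -1.82 (SE 1.02). A difference in MMP9 of that size did not pass the test, and what size could be detected with this spread between libraries was not measured.

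MMP14, the membrane-anchored collagenase that activates pro-MMP2 at the cell surface, averaged 402 ± 78.2, 339 ± 41.8, 359.7 ± 65.6 and 380.0 ± 31.0 CPM (SD, n = 5) for heat-clearing, spleen-strengthening, yin-nourishing and blood-activating. Its highest value, 506 CPM, was in heat-clearing replicate 1 and its lowest, 280.0 CPM, in spleen-strengthening replicate 6. The heat-clearing libraries at 506, 429.5, 293, 409 and 372 CPM overlapped with the spleen-strengthening libraries at 324, 347.5, 280.0, 395 and 349 CPM. The log2 fold change of heat-clearing over spleen-strengthening was 0.25 (SE 0.136, 95% interval -0.04 to 0.53, unadjusted p = 0.0851, adjusted p = 0.506). The 2 RN7SK-high heat-clearing libraries had 429.5 and 506 CPM, above the other 3 of that group at 293 to 409 CPM, and without RN7SK-high libraries the MMP14 fold change was 0.08 (SE 0.136).

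Among the inhibitors, TIMP3, which binds to the matrix and also inhibits ADAM proteases, came closest to the threshold. It stood at 299, 236, 188.5, 205.5 and 189 CPM in the heat-clearing libraries, 146, 200.4, 174.5, 149.6 and 210.0 CPM in the spleen-strengthening libraries, 196, 221, 176, 188 and 276 CPM in the yin-nourishing libraries and 147, 213, 261, 288 and 238 CPM in the blood-activating libraries. In all, 4 of the 5 blood-activating libraries lay above every spleen-strengthening library, and the remaining one, replicate 1, lay within 1 CPM of the lowest of them. The log2 fold change of spleen-strengthening over blood-activating was -0.38 (SE 0.169, 95% interval -0.73 to -0.03, unadjusted p = 0.0349, adjusted p = 0.201), and 12.2% of all tested genes were lower at an unadjusted p under 0.05 in this pair. It was of like size without the RN7SK-high libraries, at -0.42 (SE 0.156, adjusted p = 0.720), with 2 blood-activating libraries left. The adjusted p over the 32 alternatives was 0.0787 to 1. Heat-clearing over spleen-strengthening gave 0.34 (SE 0.169, unadjusted p = 0.0549, adjusted p = 0.451) for TIMP3, and 0.14 (SE 0.138) without the RN7SK-high libraries. The 2 RN7SK-high heat-clearing libraries had 236 and 299 CPM of TIMP3, above the other 3 of that group at 188.5 to 205.5 CPM.

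TIMP1, a secreted inhibitor of most soluble MMPs, stood at 80.3, 83.1, 97.95, 149 and 219 CPM in the heat-clearing libraries, 109, 137, 109.7, 153 and 135.5 CPM in the spleen-strengthening libraries, 148, 179, 144, 110.3 and 166 CPM in the yin-nourishing libraries and 95.4, 126, 176, 112 and 90.3 CPM in the blood-activating libraries. The 4 lowest of these 20 values came from RN7SK-high libraries, with 80.3 to 83.1 CPM against 97.95 to 219 CPM within the heat-clearing group and 90.3 to 112 CPM against 126 to 176 CPM within the blood-activating group. The fold change of TIMP1 for yin-nourishing over blood-activating was 0.32 (SE 0.236, adjusted p = 0.540), and -0.014 (SE 0.251) without the RN7SK-high libraries. TIMP2, which both inhibits MMPs and takes part in the activation of pro-MMP2 by MMP14, averaged 546 ± 55.2, 488 ± 89.5, 549 ± 136 and 472 ± 155 CPM (SD, n = 5) for heat-clearing, spleen-strengthening, yin-nourishing and blood-activating. Its extremes, 305.5 CPM in blood-activating replicate 4 and 731 CPM in yin-nourishing replicate 10, are 2.39-fold apart, and its pair differences lay between -0.17 and 0.22 on the log2 scale, or -0.16 and 0.53 without the RN7SK-high libraries.

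**Figure D3:**
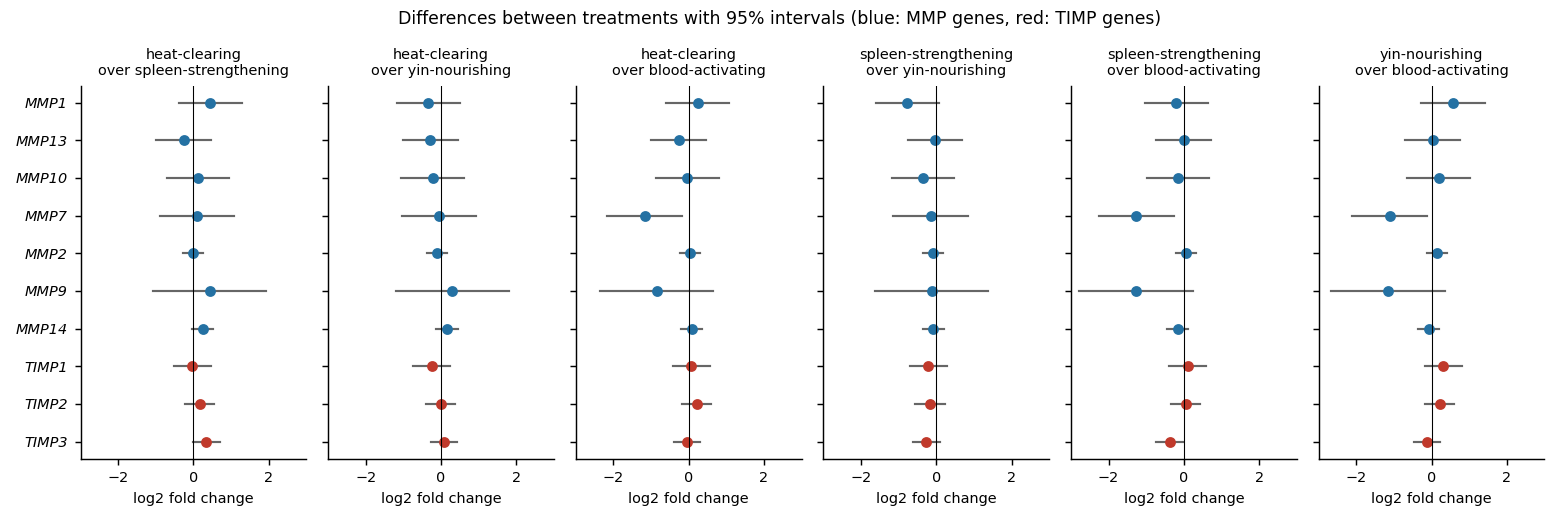
Log2 fold change of each gene in the 6 pairs of treatments, first-named over second-named, with its 95% interval from the edgeR fit over 20 libraries. The intervals of MMP7 exclude 0 in the 3 pairs with blood-activating and that of TIMP3 in spleen-strengthening over blood-activating, before adjustment for multiple testing, and those of MMP9 are the widest.

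The 10 genes had fold changes of the same sign in 1 pair of treatments. The list was not tested as a whole, and some members varied together over the libraries. For spleen-strengthening over yin-nourishing 0 members were higher and 10 lower, with a median log2 fold change of -0.16 beside 0.00 over all tested genes, and no member passed the test. In that pair the 11 tested other MMPs had 7 higher and 4 lower (median 0.12). Activators had 3 higher and 10 lower, and ADAM and ADAMTS proteases 2 higher and 10 lower. Most of the 11 other MMPs averaged under 1 CPM (from 0.13 for MMP23B to 0.95 for MMP17), so their signs are uncertain. The direction was thus not particular to the members, and whether the wider MMP family shared it could not be told. For heat-clearing over spleen-strengthening 7 were higher and 3 lower (median 0.14, all tested genes 0.02), for heat-clearing over yin-nourishing 3 were higher and 7 lower (-0.08 and 0.05) and for heat-clearing over blood-activating 5 were higher and 5 lower (0.00 and -0.01). For spleen-strengthening over blood-activating 3 were higher and 7 lower (-0.16 and -0.04), and for yin-nourishing over blood-activating 6 were higher and 4 lower (0.08 and -0.09). Without the RN7SK-high libraries, spleen-strengthening over yin-nourishing again had 0 higher and 10 lower, and heat-clearing over spleen-strengthening 7 higher and 3 lower. The 3 pairs with blood-activating, which then rested on the same 2 blood-activating libraries, had 4 higher and 6 lower for heat-clearing (median -0.21, all tested genes 0.00), 2 higher and 8 lower for spleen-strengthening (-0.46 and 0.00) and 3 higher and 7 lower for yin-nourishing (-0.15 and -0.03). The ratio of the summed CPM of the 7 MMPs to that of the 3 TIMPs, compared between libraries only, was 2.13 ± 0.195, 2.26 ± 0.425, 2.38 ± 0.330 and 2.34 ± 0.613 (SD, n = 5) for heat-clearing, spleen-strengthening, yin-nourishing and blood-activating. The groups overlapped, with 1.82 to 2.34, 1.56 to 2.72, 2.05 to 2.87 and 1.80 to 3.27, and the ratio was not tested.

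Some pairs of members varied together over the libraries. Because the RN7SK-high libraries stand apart, correlations of log2 CPM were taken over the other 15 libraries, and the 5 RN7SK-high libraries are too few for their own. Of 45 pairs of members, 5 passed at an adjusted p under 0.05 by Pearson's r and 0 by Spearman's rho (100000 permutations, two-sided, lowest adjusted p by rho 0.0830). MMP10 and MMP13, 2 genes of the chromosome 11 cluster, had r = 0.798 (permutation p = 0.00036, adjusted p = 0.0162) and rho = 0.736 (permutation p = 0.00261), with r = 0.733 without the 2 libraries farthest from the median of MMP10. Over all 20 libraries rho was 0.8045 for MMP10 and MMP13. MMP7 and MMP13, also of the cluster, had r = 0.756 (permutation p = 0.00097, adjusted p = 0.0218) and rho = 0.657 (permutation p = 0.0093), with 0.668 without the 2 farthest. With the RN7SK-high libraries kept, that relation was near 0, at rho = 0.0962 over all 20, and MMP7 and MMP10 had rho = 0.564 over the 15 libraries and 0.0647 over all 20. MMP1 lies in the same cluster between MMP10 and MMP13, and with them it had r = 0.0945 (permutation p = 0.736, rho = 0.0429) and r = -0.110 (permutation p = 0.696, rho = -0.243). MMP1 varied with MMP2 on chromosome 16, at r = 0.731 (permutation p = 0.00203, adjusted p = 0.0221, rho = 0.679, 0.726 without the 2 farthest), and with TIMP3 on chromosome 22, at r = 0.712 (permutation p = 0.00245, adjusted p = 0.0221, rho = 0.671, 0.637 without the 2 farthest). After each treatment's mean was taken out, r was 0.819 for MMP10 and MMP13 and 0.849 for MMP1 and MMP2, so these relations were present between libraries of the same treatment. Over all 20 libraries rho was 0.5865 for MMP1 and MMP2 and 0.474 for MMP1 and TIMP3. None of this is particular to the members, since over the 15 libraries MMP2 ranked 325 and TIMP3 ranked 352 by rho with MMP1 among 14569 genes, and MMP13 ranked 72.5 (a tie) by rho with MMP10. MMP9 and MMP13 had r = 0.719 (permutation p = 0.00167, adjusted p = 0.0221, rho = 0.518), which was 0.449 without the 2 farthest libraries, so that relation rested on them. The relation of MMP14 with TIMP1, at r = 0.614 (permutation p = 0.0156, rho = 0.636), did not pass the adjustment (adjusted p = 0.0779), and rho was 0.0707 over all 20.

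**Figure D4:**
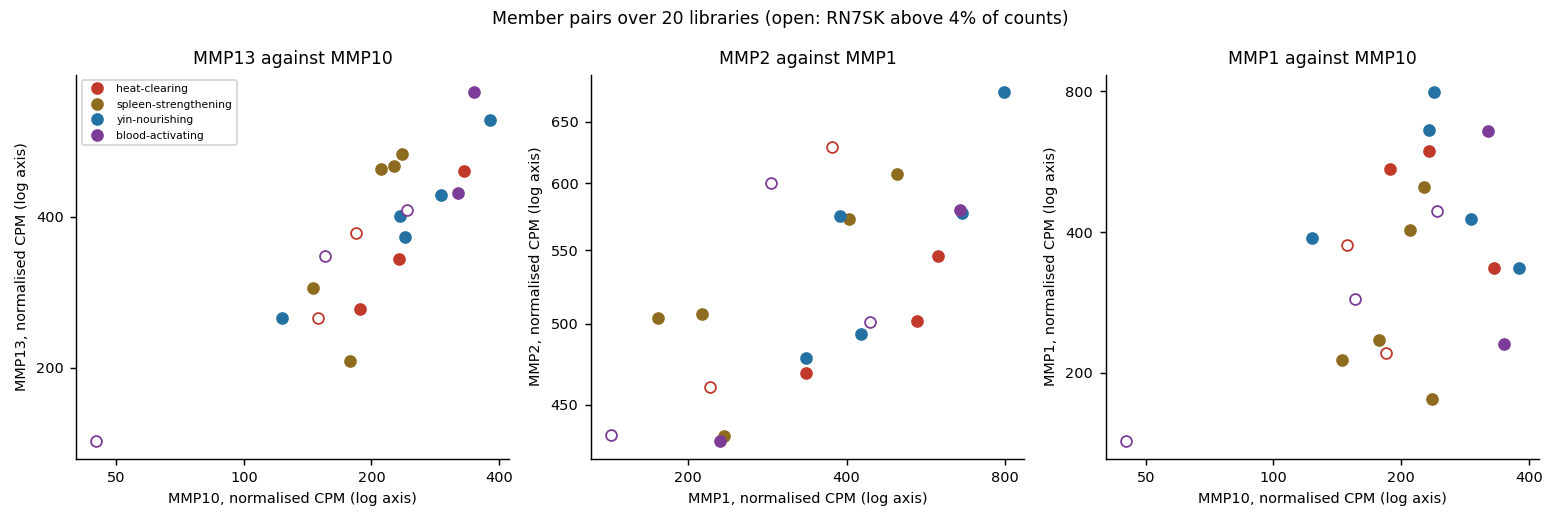
MMP13 against MMP10, MMP2 against MMP1 and MMP1 against MMP10 in normalised CPM (log axes) over the 20 libraries, coloured by treatment, with open points for RN7SK-high libraries. MMP13 climbs with MMP10 and MMP2 with MMP1 (r = 0.798 and 0.731 over the 15 filled points), while MMP1 and MMP10 show no such line (r = 0.0945).

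**Figure D5:**
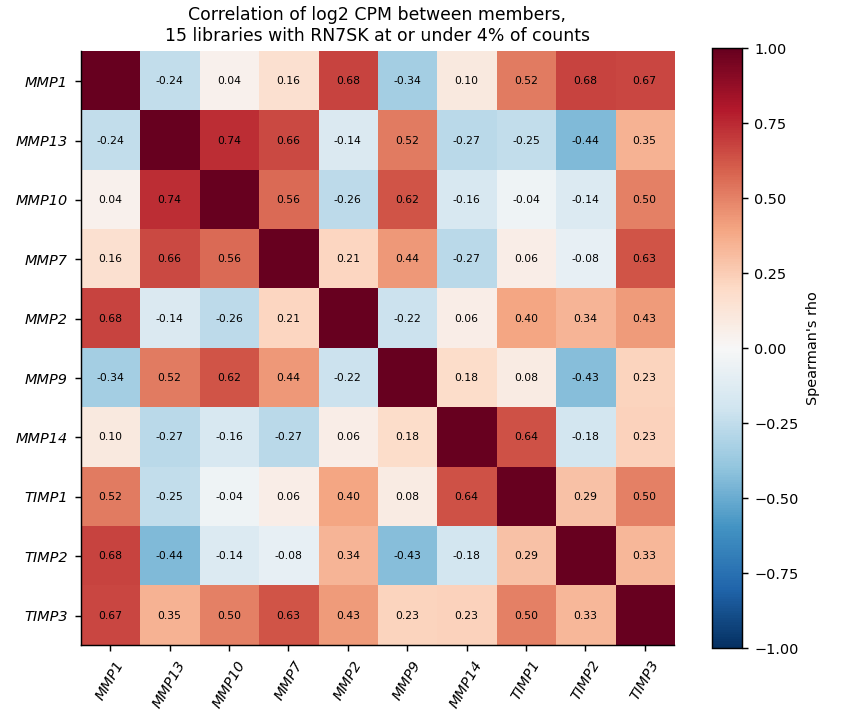
Spearman's rho of log2 CPM between the 10 genes over the 15 libraries with RN7SK at or under 4% of counts, with genes ordered by role. MMP13, MMP10 and MMP7 have positive values with each other (0.564 to 0.736), of which those of MMP7 were 0.0647 and 0.0962 when all 20 libraries were kept. MMP9, on chromosome 20, is also positive with MMP10 (0.625), MMP13 (0.518) and MMP7 (0.436). MMP1 is positive with MMP2, TIMP2 and TIMP3 (0.671 to 0.679). By rho, 0 of the 45 pairs passed at an adjusted p under 0.05.

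The genes whose pattern was most like each member were ranked by Spearman's rho with log2 CPM over the 20 libraries among 14569 genes at a mean of 1 CPM or more, as a description and with no p, since all genes share the libraries and their depth. For MMP1 they were PTHLH (parathyroid hormone-like hormone, rho 0.916), BMP2 (a bone morphogenetic protein, 0.899) and CD59 (a complement inhibitor, 0.890), with 0.900, 0.929 and 0.925 over the 15 libraries without high RN7SK. For MMP13 they were LRIG3 at 0.926, RNF152 at 0.910 and TNFAIP8 at 0.889, with 0.918, 0.861 and 0.968 over the 15. RNF152, a ubiquitin ligase of the lysosome, was also among the 3 genes most like MMP10 at 0.832, after GK (glycerol kinase) at 0.874 and before VLDLR (a lipoprotein receptor) at 0.827. For MMP2 they were NECTIN3 at 0.805, NAP1L1 at 0.794 and the protease inhibitor SERPINE2 at 0.765. MMP7 was most like FOXE1 at 0.796, FYB1 at 0.791 and LINC00511 at 0.756, of which FYB1 and LINC00511 had 0.654 and 0.529 over the 15 libraries. MMP9 was most like CAMK1D at 0.845, CXCL17 at 0.827 and SUSD6 at 0.823. MMP14 was most like UPF1 at 0.874, OBSL1 at 0.871 and TMED9 at 0.868. TIMP1 went with METTL5 at 0.905 and the ribosomal protein genes RPL18 at 0.904 and RPL13A at 0.895. TIMP2 went with LINC02582 at 0.889, ATP13A3 at 0.866 and LRAT at 0.851, and TIMP3 with ADAMTSL4 at 0.898, SLC6A8 at 0.884 and JUNB, a Jun protein of AP-1, at 0.878.

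The wider pathway was read from lists of other MMPs, other inhibitors, activators, ADAM and ADAMTS proteases, substrates and transcription factors. In the edgeR fit no gene of these lists passed in any comparison. Whether DESeq2 or limma voom called any of them was not examined. At an unadjusted p under 0.05 in the 4-treatment test the counts were 1 of 11 tested other MMPs, 0 of 3 other inhibitors, 2 of 13 activators, 2 of 12 ADAM and ADAMTS proteases, 5 of 17 substrates and 4 of 17 transcription factors, beside 15.4% of all tested genes. PLAU, urokinase, which generates the plasmin that activates several pro-MMPs, averaged 65.3 ± 38.2, 26.2 ± 2.67, 30.4 ± 7.63 and 61.9 ± 26.5 CPM (SD, n = 5) for heat-clearing, spleen-strengthening, yin-nourishing and blood-activating (adjusted p = 0.172). Its 5 highest libraries, at 70.7 to 122 CPM, were the RN7SK-high ones, and the part of this in the group means was not tested. The PLAU fold change of spleen-strengthening over blood-activating was -1.24 (SE 0.341), and -0.38 (SE 0.197) without those libraries. MMP15, a membrane-type MMP like MMP14, averaged 20.8 ± 9.24, 14.4 ± 1.35, 12.3 ± 3.04 and 24.6 ± 7.55 CPM in the same order (adjusted p = 0.173), with a fold change of yin-nourishing over blood-activating of -0.9994 (SE 0.2598), or -0.48 (SE 0.231) without the RN7SK-high libraries. Among substrates, LAMB1, a laminin chain, averaged 44.1, 62.8, 48.4 and 44.6 CPM in that order (adjusted p = 0.172), and LAMB3, a chain of the epithelial laminin-332, 603, 349.6, 422.5 and 619.5 CPM (adjusted p = 0.190). For spleen-strengthening over blood-activating LAMB1 had a fold change of 0.49, or 0.45 without the RN7SK-high libraries, and LAMB3 one of -0.83, or -0.19 without them. COL7A1, a collagen chain, averaged 32.7, 19.6, 22.5 and 35.8 CPM in the same group order (adjusted p = 0.172). Without the RN7SK-high libraries its fold change of spleen-strengthening over blood-activating was -0.77 (SE 0.152, adjusted p = 0.194), with 2 blood-activating libraries left. RELA, a subunit of NF-kappa B, had the smallest adjusted p of the lists in spleen-strengthening over blood-activating, 0.0836, at a log2 fold change of -0.74 (SE 0.188), or -0.29 (SE 0.171) without the RN7SK-high libraries.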

How the data were processed

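Raw counts per gene, as deposited by the authors, were whole numbers that had not been normalised. Per the labels' protocols, total RNA came from a TRIzol extraction, was depleted of ribosomal RNA and was made into directional libraries. The submitters' processing notes name HISAT2, StringTie and hg38, but no annotation, strand setting or handling of mouse reads is stated there. Counts of 20 samples in 4 groups of 5 were scaled by TMM and tested with edgeR 4.0.16 (R 4.3.3, robust quasi-likelihood F-tests, 1 fit). The filter with a minimum count of 10 left 24790 of 60656 rows, over which the Benjamini-Hochberg adjustment ran, with a threshold of 0.05. Comparisons were the joint 4-treatment test and the 6 pairs. Alternatives were RLE and upper quartile scaling, DESeq2 1.42.0, limma 3.58.1 voom, no or a strict filter (1 CPM in 5 samples), the unexplained letter at the end of each title, a replicate block, a host-marker covariate, each pair alone, each library left out, and the RN7SK-high libraries (over 4% of counts) left out or given a term. Correlations used log2 CPM (prior count 2) with 100000 permutations (SciPy 1.17.1). The tests were checked on simulated data with changes in the heat-clearing group. They recovered 8 to 13% of 1.5-fold changes and 79 to 84% of 3-fold changes, so most small differences would be missed. The simulated spread was the trend over genes of like level, so recovery for members with a larger spread was not measured. Total counts of 81.7 to 135 M per library give small counting error for all members but MMP7 and MMP9. All 10 members are named. From other lists the genes called, or else up to 4 with the smallest p at a mean of 1 CPM or more, could be named, of which some are described. KRT19, EPCAM, COL1A1, FAP, COL6A3, DCN, PDGFRB, THY1, PECAM1, ENG, KDR, CD68, LYZ and PTPRC were named as cell type markers. The within-treatment SD without single libraries was added after seeing the data. The members and lists were chosen with earlier results of these data known.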

Additional observations from a re-analysis of the deposited data

Results flagged for a closer look

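MMP7 in heat-clearing replicate 1 stood at 4.02 CPM, far from the other 4 heat-clearing libraries at 0.6997 to 1.38 CPM. Its gap to the next library was 0.796 of the whole range of the group, above Dixon's critical value of 0.71 for 5 samples. It was the 1 value so marked among 40 groups of 5 (10 genes in 4 treatments), where chance marks about 1 in 20. The library is RN7SK-high, and the other RN7SK-high library of that group had 0.753 CPM of MMP7. The part of RN7SK in this value was not tested.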

How the results depend on the processing

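No member passed in any comparison under the alternatives, except that limma voom with quality weights called 1 member (MMP7) in spleen-strengthening over blood-activating (log2 fold change -1.22, adjusted p = 0.0394) and 1 (MMP7) in yin-nourishing over blood-activating, where it called 4880 and 4182 genes in all, edgeR 0 each and DESeq2 1933 and 1055. In the 4-treatment test limma voom called 2175 genes, DESeq2 1259 and edgeR 0. The cause was not tested. Followed through 32 alternatives in the pair with its smallest p, each member except TIMP1 kept its direction. The TIMP1 difference of yin-nourishing over blood-activating, 0.32, was -0.014 without the RN7SK-high libraries and -0.11 with a term for them, and the cause was not tested. MMP7 for spleen-strengthening over blood-activating ranged from -1.45 to -0.51, and TIMP3 from -0.52 to -0.27. Leaving out each library in turn gave 0 members called throughout, while the count over all genes went up to 378 in the 4-treatment test (without heat-clearing replicate 3, which also gave 311 in spleen-strengthening over blood-activating), 2002 in spleen-strengthening over blood-activating and 361 in yin-nourishing over blood-activating (both without blood-activating replicate 4). MMP9 for spleen-strengthening over blood-activating ranged from -1.82 to -0.75. The labels do not say whether replicate numbers pair the samples, and the main fit used no pairing. Deviations of 12 same-numbered pairs of libraries had a median correlation of 0.00685, with 1 over 0.1 (0.1703). Those of 138 other pairs had a median of -0.00065, with 8 over 0.1 (at most 0.1697). Such values show no common shift by number but cannot exclude a pairing. With the number as a replicate block 0 members were called, and the MMP7 value was -0.54. Libraries of 81.7 to 135 M counts leave the spread between libraries, not depth, as the limit for the 8 members above 44 CPM, while MMP9 rested on as few as 20 counts.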

Other observations

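Of 7 human pancreatic acinar marker genes, all were detected, and their summed level ranged over 2.25 to 292 CPM in the heat-clearing, 0.968 to 58.9 CPM in the spleen-strengthening, 1.59 to 774 CPM in the yin-nourishing and 5.79 to 669 CPM in the blood-activating libraries, with group medians of 3.23, 3.71, 3.55 and 43.3 CPM. PRSS1, cationic trypsinogen, reached 133 CPM in 1 library and had a median of 1.58 CPM over the 20. The part of mouse reads in these acinar values was not tested.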
